A study of Mus musculus with 8 samples.

Results

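This section describes the microRNA genes among the transcripts that differed between the dorsal skin of mouse embryos lacking corneodesmosin in the epidermis and that of control embryos. The members are the rows of the authors' deposited table of changed probe sets whose gene symbol begins with Mir and a digit or with Mirlet, 72 probe sets for 72 genes. That table holds 5460 of the 33793 probe sets on the array, so the members were chosen by the KO minus WT contrast itself, and their differences are given as a description, with no test.

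The KO embryos carried a Cre transgene driven by the keratin gene promoter KRT14 (KRT14-Cre(tg/0)) and floxed Cdsn alleles (Cdsnfl/fl), and the control embryos, here WT, carried the same transgene with unfloxed alleles (Cdsnwt/wt), both on the background labelled C57B/6J. That promoter is active in the basal layer of the epidermis and its appendages, while the RNA came from whole skin. All embryos were taken at E18.5, and all skins were tape-stripped and kept on culture medium for 4 h, so no unstripped skin enters the comparison. Each genotype had 4 arrays, 1 per embryo, and litters and sexes are not given. The spread reported is that between these embryos, except where arrays held the same deposited value, as given below.

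Pairs of arrays correlated across all probe sets, with genes not independent of each other, at 0.979 to 0.989 within and 0.967 to 0.980 between genotypes. KO replicate 3 had the highest mean correlation with the arrays of the other genotype, 0.977, and WT replicate 1 the lowest with its own, 0.981. Without these 2 arrays 50 of the 72 members described below met the selection criteria, 27 higher and 23 lower, with fewer arrays in the fit. In that fit 4914 of all 33793 probe sets met them, 3613 higher and 1301 lower.

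MicroRNAs are short RNAs cut from hairpins within longer primary transcripts, first by Drosha with Dgcr8 in the nucleus and then by Dicer in the cytoplasm. The mature strand is loaded on an Argonaute protein and recognises messenger RNAs mainly through its seed, and in skin microRNAs are known for their part in epidermal differentiation, hair follicle formation and wound repair. The array reads RNA with the sequence of the hairpin or of the transcript around it, so the values below are not levels of mature microRNAs. They are intensities of probe sets named for these genes, and which transcript gave each was not tested.

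Mature sequences were taken from RefSeq (GRCm38.p6) and are printed 5′ to 3′ with the seed, bases 2 to 8, in capitals. RefSeq entries were matched for 71 of the 72 genes, 68 by accession and 3 by symbol, and 58 of them had at least 1 mature sequence. Those of genes with the largest rises come first, because the description of single members starts with them.
miR-335-5p: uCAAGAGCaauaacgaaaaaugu
miR-290a-3p: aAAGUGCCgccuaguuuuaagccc
miR-138-5p: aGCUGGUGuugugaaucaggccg
miR-19a-3p: uGUGCAAAucuaugcaaaacuga
miR-22-3p: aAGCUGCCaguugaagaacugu
miR-18a-5p: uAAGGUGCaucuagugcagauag
miR-125a-5p: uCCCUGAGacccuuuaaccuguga

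The next set holds mature products of genes with the largest falls.
miR-466j: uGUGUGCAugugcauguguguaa
miR-1898: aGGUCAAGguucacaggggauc
miR-423-5p: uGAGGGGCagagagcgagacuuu
miR-7a-5p: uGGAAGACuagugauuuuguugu
miR-691: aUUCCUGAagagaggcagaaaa
miR-15a-5p: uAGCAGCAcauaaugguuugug

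The last set holds products that share a seed between members. These 5 shared seeds join 8 genes in pairs, and the identical products of Mir344 and Mir344-2 account for 2 of them.
miR-130b-3p: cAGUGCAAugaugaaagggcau
miR-301a-3p: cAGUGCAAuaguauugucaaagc
miR-344-3p: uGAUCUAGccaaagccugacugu
miR-344-5p: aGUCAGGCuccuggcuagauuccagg
miR-344d-3p: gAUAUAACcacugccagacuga
miR-344e-3p: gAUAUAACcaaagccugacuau
miR-674-5p: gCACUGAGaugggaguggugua
miR-3473d: cCACUGAGccacuuuccagcccuu

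Of the 72 microRNA genes 41 were higher and 31 lower in KO skin, 56.9% and 43.1%, where the whole of the authors' deposited table held 72.8% higher and 27.2% lower. The criteria of that table, a log2 change above 0.5 in size together with a Benjamini-Hochberg adjusted p below 0.05, were met by 16.2% of all probe sets on the array, 11.8% higher and 4.4% lower. How many microRNA probe sets failed them is not known here, because only the probe sets of the table are named. The changes of the higher members ran from 0.51 to 1.71 on the log2 scale with a median of 0.68, and those of the lower members from −1.59 to −0.50 with a median of −0.91. Changes over 1 in size, a doubling or halving, were seen in 10 higher and 9 lower members. Over all probe sets the median change was 0.09, and relative to it the higher members changed by 0.42 to 1.62 and the lower by −1.68 to −0.59.

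KO and WT values did not overlap in 61 of the 72 members, 84.7%, where 25.0% of all probe sets and 87.2% of those in the authors' deposited table had groups without overlap. These shares follow from the choice of the members. The 11 members with overlapping groups were Mir30d, Mir133a-2, Mir466l, Mir425, Mir216a and Mir883b among the higher and Mir3102, Mir344, Mir669c, Mir493 and Mir466j among the lower.

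**Figure D1:**
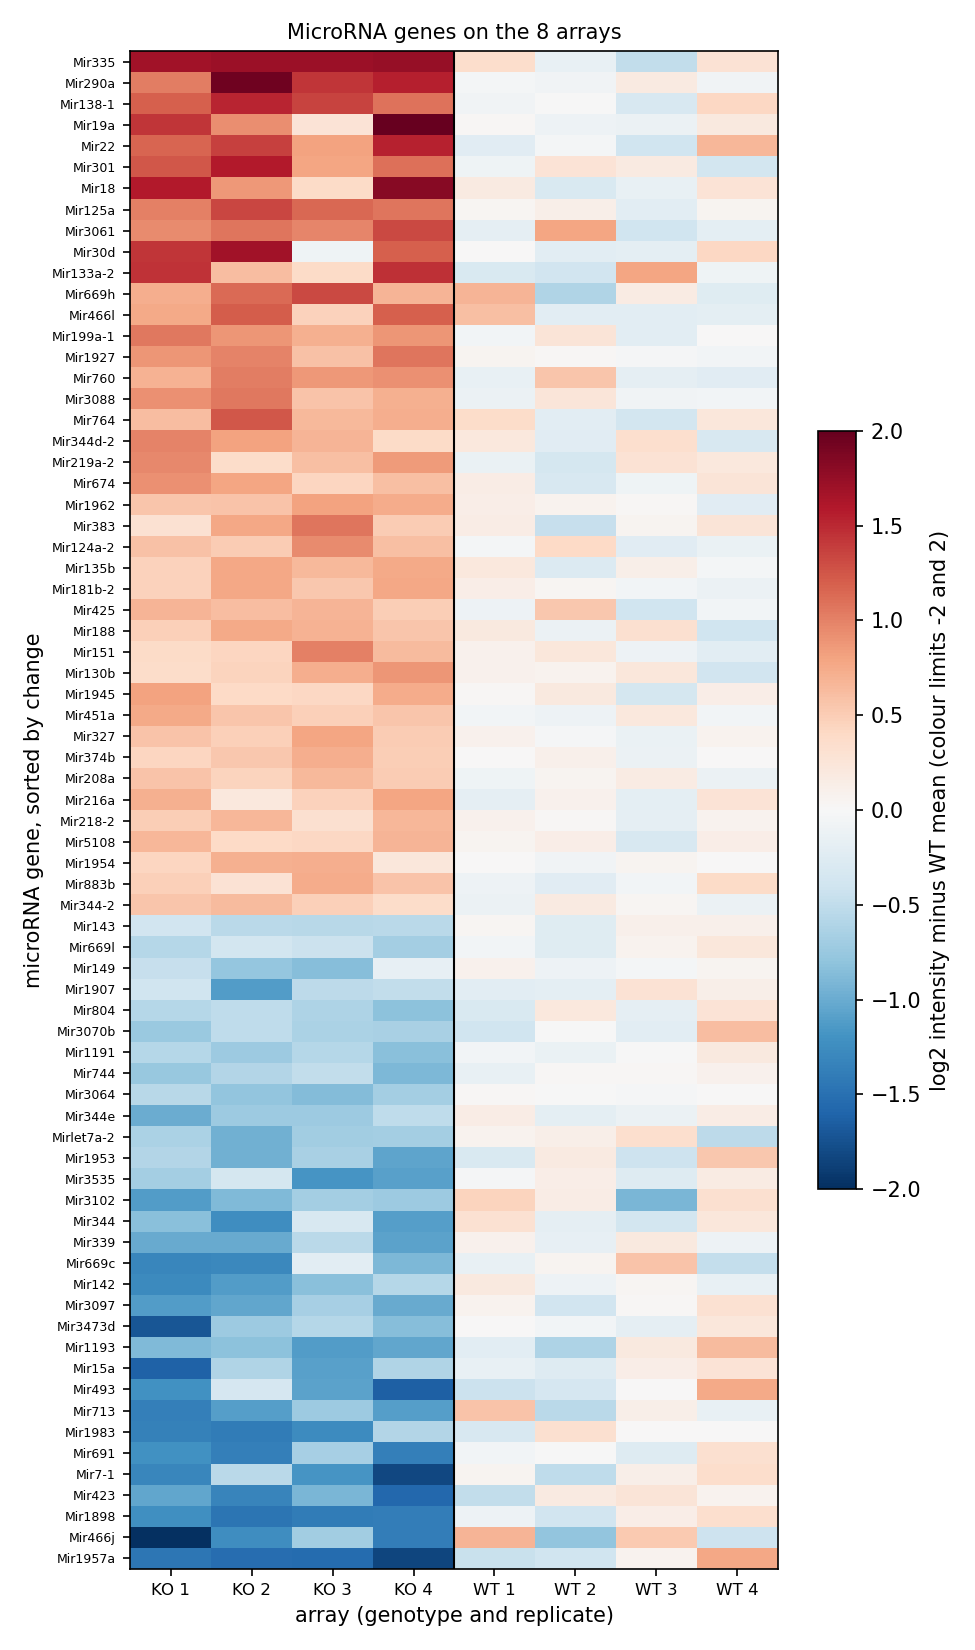
Log2 intensity of each of the 72 microRNA genes on the 8 arrays, minus the mean of the 4 WT arrays, with genes sorted by their change and colour limits at −2 and 2. The 41 genes in the upper block were higher and the 31 in the lower block lower in KO skin; KO replicate 3 is pale in several rows, among them Mir19a, Mir18, Mir30d and Mir669c.

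Most of the members gave weak signals. Their WT means ran from 1.72 to 8.77 on the log2 intensity scale with a median of 3.80, against a median of 4.72 over all probe sets, and 52 of the 72 lay below that median. The WT mean was under the lower quartile of all probe sets, 3.26, in 28 members, 21 of them higher and 7 lower in KO skin. No background or detection value was used here, so a WT level in this range is an intensity and not a sign that the transcript was present. The higher members had a median WT mean of 3.16 and the lower ones of 4.55, and in KO skin the medians were 4.12 and 3.49. Averaged over all 8 arrays they were 3.54 and 4.08. Intensities of different probe sets also depend on their probes, so their order is not an order of transcript amounts.

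The number of probes behind each value was small, from 7 to 50 per probe set with a median of 15, against 21 over the authors' deposited table. Members higher in KO skin had a median of 16 probes and those lower a median of 13. The table's class code, 1 or 3, which in Affymetrix's scheme marks unique and mixed probe sets, was 3 in 27 of the 72 members (37.5%), 13 higher and 14 lower, and in 12.8% of the whole table. RefSeq lengths of the hairpins ran from 63 to 147 bases with a median of 89. With probes of 25 bases, the usual length on such arrays, the number of probes was larger than the number of 25-base windows in the hairpin for 1 member, Mir3064.

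**Figure D2:**
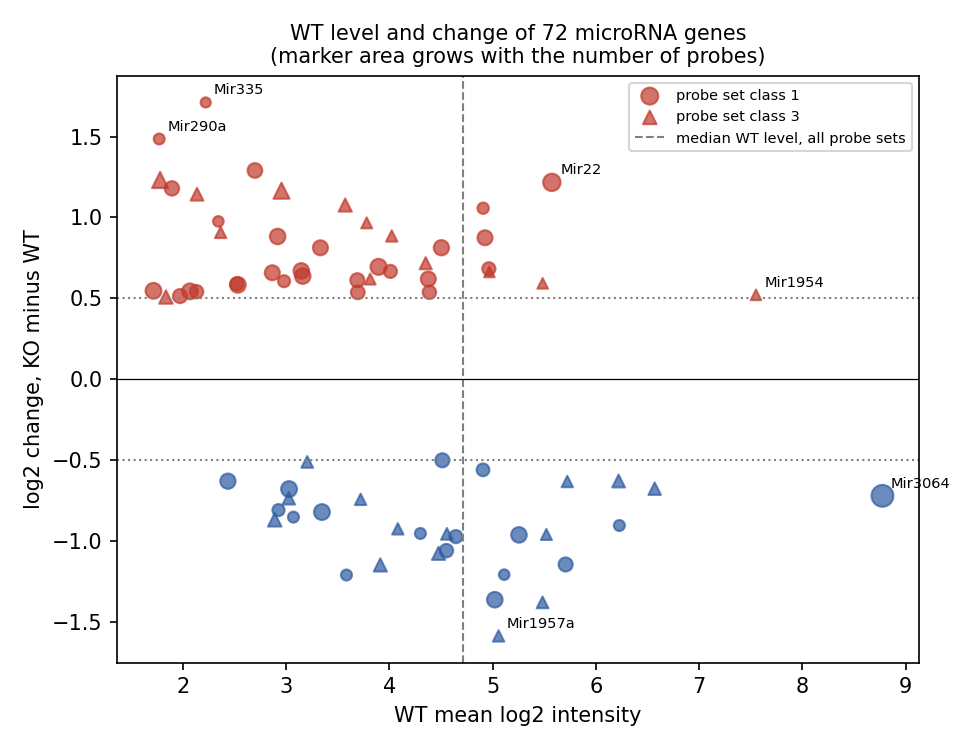
WT mean log2 intensity (horizontal) against the log2 change, KO minus WT (vertical), for the 72 microRNA genes; circles and triangles are probe set classes 1 and 3, the marker area grows with the number of probes, dotted lines lie at 0.5 and −0.5 and the dashed line at the median WT level of all probe sets, 4.72. Of the 41 higher members 34 lie left of the dashed line, and of the 31 lower members 18 do.

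The largest rise was that of Mir335, on chromosome 6, which lies within the imprinted gene Mest on its strand. Its log2 intensities, here and below in the order of replicates 1 to 4, were 3.91, 3.93, 3.93 and 3.96 on the KO arrays and 2.58, 2.07, 1.74 and 2.51 on the WT arrays. The 4 KO values lay within a narrow band above all WT values, and the change was 1.71 ± 0.18 (SE), a 3.27-fold higher level read by 7 probes. KO replicates 2 and 3 held the same deposited value, 3.934225794, so the narrow band is not read as the spread between embryos. Arrays of the same genotype held equal deposited values in at least Mir344e, Mir15a, Mir713, Mir425, Mir290a and Mir451a as well. Their SDs and SEs carry the same limit. The hairpin of Mir335, at chr6:30741299-30741396 on the plus strand of GRCm38.p6, is shown with the mature strands in capitals to place them within the precursor.
Mir335: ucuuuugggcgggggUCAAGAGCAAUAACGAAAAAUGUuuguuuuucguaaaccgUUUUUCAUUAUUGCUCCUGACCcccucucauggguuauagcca

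Mir290a, on chromosome 7, belongs to a cluster best known from mouse embryonic stem cells. The log2 intensities were 2.79, 3.71, 3.21 and 3.32 in KO and 1.74, 1.70, 1.95 and 1.70 in WT skin, a change of 1.49 ± 0.18 (SE). The groups did not overlap, but the WT mean, 1.77 ± 0.12 (SD, n = 4), was among the lowest of all probe sets, at percentile 2.86. Mir138-1, on chromosome 9, encodes a microRNA known in rat neurons for limiting the size of dendritic spines. It read 3.90, 4.22, 4.05 and 3.79 in KO and 2.62, 2.69, 2.37 and 3.11 in WT skin, again without overlap, and changed by 1.29 ± 0.17 (SE) over 20 probes.

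Mir22, on chromosome 11 within the noncoding gene Mir22hg, encodes a microRNA known in mouse skin for driving the regression of hair follicles. Of the 10 largest rises it was the 1 with the highest WT level, with log2 intensities of 6.73, 6.94, 6.37 and 7.12 in KO and 5.35, 5.53, 5.18 and 6.24 in WT skin. WT replicate 4 came close to the lowest KO value without reaching it, and the change was 1.22 ± 0.23 (SE), or 2.32-fold, over 30 probes. This rise met the criteria in all 16 alternatives fitted. Among these, 1 left out probe sets below the median level and kept 17 members. The other members, such as Mir19a, Mir130b, Mir451a, Mir133a-2 and Mir344-2, were not tested in it. In the counts out of 16 given below, 15 is thus the most they could reach.

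Mir18 and Mir19a lie within 10 kb of each other on the plus strand of chromosome 14, in the cluster that also holds Mir17 and is known for promoting cell proliferation. For Mir18 the log2 intensities were 4.55, 3.82, 3.34 and 4.78 in KO and 3.13, 2.65, 2.81 and 3.23 in WT skin, a change of 1.17 ± 0.29 (SE). For Mir19a they were 3.20, 2.71, 2.05 and 4.09 in KO and 1.81, 1.68, 1.66 and 1.97 in WT skin, a change of 1.23 ± 0.34 (SE). In both genes KO replicates 1 and 4 were highest and KO replicate 3 lowest, just above the WT values. Both probe sets had 25 probes and class 3. The KO SD of Mir19a, 0.86, was the largest of any member, and Mir19a met the criteria in 10 of 16 alternatives.

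Mir301 and Mir130b share the seed of their 3p products and were both higher. Mir301, on chromosome 11 within Ska2, read 3.14, 3.48, 2.68 and 2.9995 in KO and 1.82, 2.16, 2.07 and 1.53 in WT skin, a change of 1.18 ± 0.19 (SE) over 19 probes. Mir130b, on chromosome 16, read 3.35, 3.42, 3.70 and 3.87 in KO and 3.07, 3.05, 3.21 and 2.60 in WT skin, a change of 0.61 ± 0.17 (SE). Neither pair of groups overlapped, though Mir130b met the criteria in 6 of 16 alternatives and in none of the 3 other scalings.

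Mir125a, on chromosome 17 within Spaca6, belongs to the vertebrate family related to lin-4, the founding microRNA of Caenorhabditis elegans. Its log2 intensities of 3.15, 3.47, 3.29 and 3.21 in KO and 2.18, 2.26, 1.93 and 2.19 in WT skin gave a change of 1.14 ± 0.12 (SE), the smallest SE among the 10 largest rises. Mir3061 changed by 1.08 ± 0.23 (SE), with KO values of 4.52, 4.64, 4.55 and 4.90 and WT values of 3.39, 4.37, 3.17 and 3.37, the WT replicate 2 value standing near the KO range. Mir30d, on chromosome 15, was the last of the 10, at 1.06 ± 0.33 (SE). Its KO replicate 3 value fell among the WT values, as the intensities were 6.34, 6.60, 4.83 and 6.11 in KO and 4.91, 4.70, 4.71 and 5.32 in WT skin, and it met the criteria in 5 of 16 alternatives.

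**Figure D3:**
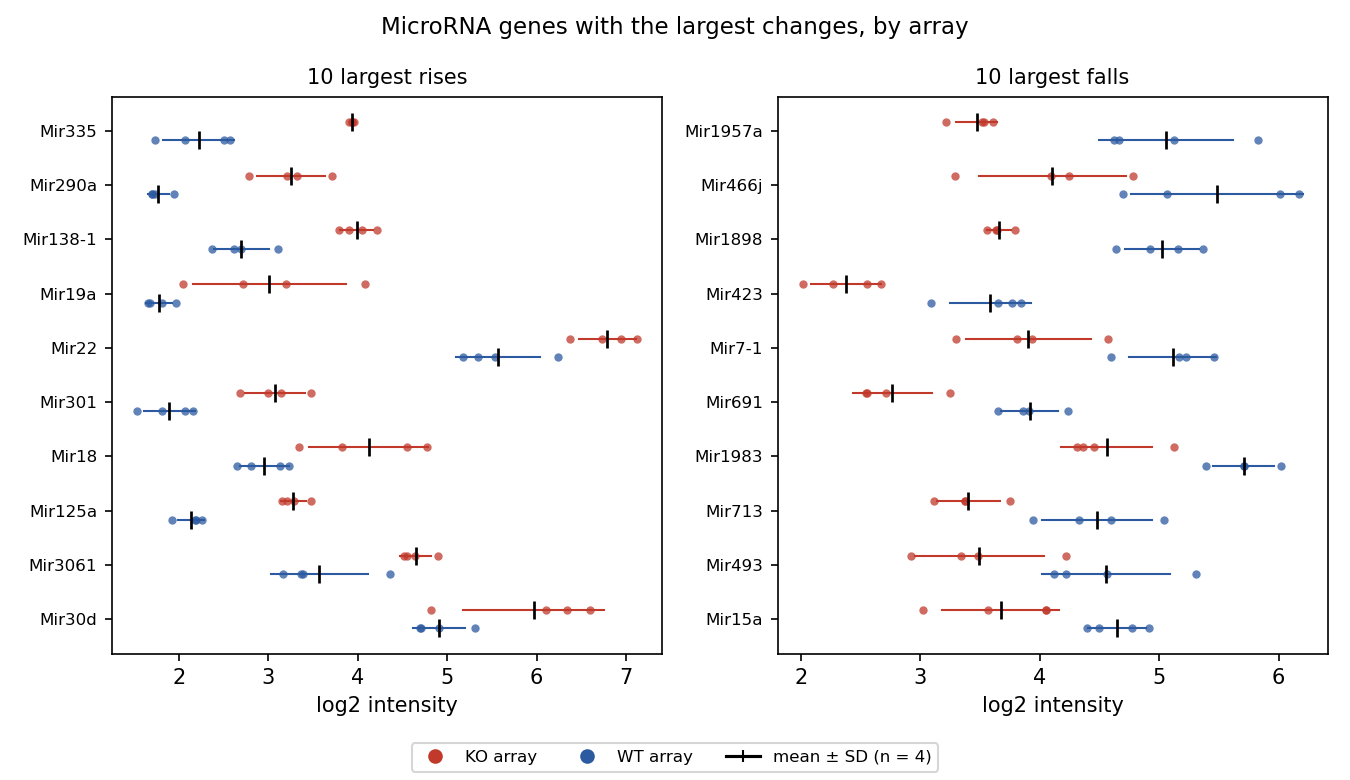
Log2 intensity of the 10 microRNA genes with the largest rises (left) and the 10 with the largest falls (right), each point 1 array (KO red, WT blue), with the mean (tick) and SD (line) of 4 arrays per genotype. Mir30d on the left and Mir493 and Mir466j on the right are the genes whose KO and WT points overlap.

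Among the falls the largest was that of Mir1957a, on chromosome 4. The log2 intensities were 3.61, 3.53, 3.52 and 3.22 on the KO and 4.62, 4.67, 5.12 and 5.83 on the WT arrays, with no overlap, and the change was -1.59 ± 0.24 (SE) over 10 probes of class 3. Mir466j, on chromosome 10, read 3.29, 4.24, 4.78 and 4.10 in KO and 6.17, 4.69, 6.01 and 5.07 in WT skin. Both genotypes spread widely, KO replicate 3 lay above WT replicate 2, and the change was -1.38 ± 0.37 (SE). Its product, printed above, is made mostly of alternating u and g, as in other microRNAs of the Mir466 family.

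Mir1898, on chromosome 15 within Zfr, showed a tighter fall. Its values were 3.79, 3.56, 3.63 and 3.65 in KO and 4.93, 4.64, 5.16 and 5.36 in WT skin, a change of -1.36 ± 0.16 (SE) over 23 probes, so KO skin stood at 0.39 times the WT level. Mir423, on chromosome 11 within Nsrp1, read 2.55, 2.27, 2.67 and 2.01 in KO and 3.09, 3.76, 3.84 and 3.65 in WT skin, and changed by -1.21 ± 0.19 (SE). The groups were apart in both genes.

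Mir7-1 lies on chromosome 13 within Hnrnpk, a gene for an RNA-binding protein, and its product miR-7a is best known from brain and endocrine cells. It read 3.81, 4.57, 3.94 and 3.30 in KO and 5.17, 4.60, 5.22 and 5.46 in WT skin, a change of -1.21 ± 0.26 (SE), with KO replicate 2 just below the lowest WT value. Mir15a, on chromosome 14 within the noncoding gene Dleu2, is known for restraining the survival gene Bcl2 in human leukaemia. Its values of 3.02, 4.05, 3.56 and 4.05 in KO and 4.50, 4.39, 4.77 and 4.91 in WT skin did not overlap, and the change was -0.97 ± 0.23 (SE).

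The remaining large falls were Mir691 on chromosome 16 (-1.15 ± 0.18, SE), Mir1983 on chromosome 13 (-1.15 ± 0.20), Mir713 on chromosome 13 (-1.08 ± 0.22) and Mir493 on chromosome 12 (-1.06 ± 0.30). Mir691, Mir1983 and Mir713 had separate groups, with WT means of 3.91 ± 0.24, 5.71 ± 0.26 and 4.48 ± 0.46 (SD, n = 4). Mir1983, the brightest of the 3, met the criteria in all 16 alternatives. Mir493 overlapped, with KO replicate 2 at 4.22 beside WT values of 4.12, 4.22, 4.56 and 5.31.

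Of the list of microRNAs studied in skin, inflammation or single cell types, 98 named genes and the let-7 genes, 11 were members, 8 higher and 3 lower, where 11.8% of all probe sets met the criteria as higher and 4.4% as lower. Those higher were Mir18, Mir19a, Mir125a, Mir133a-2, Mir199a-1, Mir124a-2, Mir181b-2 and Mir451a, and those lower were Mir142, Mirlet7a-2 and Mir143. Their share in either direction is set by the choice of members and is read no further. Mir203, Mir205, Mir21a, Mir31, Mir146, Mir155 and Mir223, which are among the best studied in keratinocytes and inflamed skin, were not listed under these names in the authors' deposited table. Their levels were not analysed here, so nothing is said of whether they changed.

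Mir142 encodes a microRNA of blood-forming cells. The printed strands are the following.
miR-142a-5p: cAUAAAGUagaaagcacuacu
miR-142a-3p: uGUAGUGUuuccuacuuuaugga
Its log2 intensities were 3.02, 3.18, 3.46 and 3.72 on the KO arrays and 4.49, 4.21, 4.35 and 4.16 on the WT arrays, a change of -0.95 ± 0.16 (SE) with no overlap. In the same skins 6 of 9 myeloid marker genes were in the authors' deposited table and all 6 were higher in KO skin, where 11.8% of all probe sets met the criteria as higher. Among the 6 were Cd74 (change 1.06 ± 0.16, SE) and Cd14 (1.01 ± 0.22). The summed intensity of these 6, on the log2 scale, was 9.16 to 9.60 in KO and 8.20 to 8.69 in WT skin. Of 4 T cell genes 2 were in the table, Cd3e and Tcrg-V5, and both were higher, beside the same 11.8% of all probe sets. Their summed log2 intensities were 5.72 to 6.19 in KO and 4.88 to 5.21 in WT skin. Mir142 was thus lower where these markers were higher, and their part in its value was not tested. In whole skin, fewer cells of a type and less RNA per cell cannot be told apart.

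Mir451a, whose product is known in red blood cells and is cut by Ago2 in place of Dicer, read 3.28, 3.08, 3.01 and 3.08 in KO and 2.47, 2.42, 2.73 and 2.47 in WT skin. Every KO value was above every WT value, and the change was 0.59 ± 0.12 (SE). It met the criteria in 12 of 16 alternatives but in none of the 3 other scalings, with a change of 0.48 after centring. Of 3 erythroid markers 1 was in the table, the globin gene Hbb-bt, with a change of 0.85 ± 0.15 (SE) and log2 intensities of 4.21 to 4.68 in KO and 3.53 to 3.98 in WT skin. Mir133a-2, a microRNA gene of striated muscle, read 3.79, 2.96, 2.73 and 3.81 in KO and 2.03, 1.96, 3.14 and 2.26 in WT skin, with WT replicate 3 inside the KO range, and changed by 0.98 ± 0.31 (SE). It met the criteria in 3 of 16 alternatives. Of 4 muscle markers 1, the myosin gene Myh1, was in the table (1.28 ± 0.20, SE), at 4.77 to 5.69 in KO and 3.73 to 4.27 in WT skin. Over all probe sets 11.8% met the criteria as higher, so 1 marker of 3 or of 4 in the table is read no further. The part of red cells or muscle in the values of Mir451a and Mir133a-2 was not tested.

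Mirlet7a-2 is 1 of the let-7 genes, whose products accumulate as cells differentiate. Its values were 3.08, 2.76, 3.03 and 3.04 in KO and 3.80, 3.83, 4.06 and 3.20 in WT skin, a change of -0.74 ± 0.18 (SE), and the groups were apart. Lin28b, which in mammals is known for blocking the processing of let-7 precursors, was in the authors' deposited table with the opposite sign. Lin28b read 3.86, 4.06, 3.85 and 4.03 in KO and 3.04, 3.18, 2.84 and 2.99 in WT skin, a change of 0.94 ± 0.12 (SE). A link between the values of Lin28b and Mirlet7a-2 was not tested.

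Mir199a-1, known from mesenchymal cells, read 5.08, 4.91, 4.74 and 4.91 in KO and 3.97, 4.27, 3.81 and 4.04 in WT skin, a change of 0.89 ± 0.13 (SE). The fibroblast list had 1 of 3 markers in the table, Mfap5 (0.78 ± 0.23, SE), at 9.05 to 9.81 in KO and 8.17 to 9.13 in WT skin, and its part in this value was not tested. Mir181b-2, known in lymphocytes and endothelium, read 3.63, 3.94, 3.70 and 3.94 in KO and 3.30, 3.21, 3.10 and 3.04 in WT skin and changed by 0.64 ± 0.12 (SE). Of 3 endothelial markers 1 was in the table, the claudin gene Cldn5 (0.55 ± 0.15, SE), at 6.67 to 7.17 in KO and 6.19 to 6.61 in WT skin, and its part in this value was not tested. Mir124a-2, a gene of a neuronal microRNA, changed by 0.66 ± 0.16 (SE) with KO values of 5.56, 5.48, 5.91 and 5.58 and WT values of 4.93, 5.37, 4.74 and 4.83. Groups did not overlap in any of these 3 microRNA genes. Over all probe sets 11.8% met the criteria as higher, so 1 marker of 3 in the table is read no further.

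Genes of 1 locus did not always share a direction. On chromosome 7, Mir344, Mir344e, Mir344-2 and Mir344d-2 lie on the minus strand, the first 2 of them within the noncoding gene A230057D06Rik. Mir344 read 2.06, 1.65, 2.58 and 1.79 in KO and 3.20, 2.72, 2.52 and 3.12 in WT skin, a change of -0.87 ± 0.22 (SE), with KO replicate 3 above the lowest WT value. Mir344-2, which gives the same mature strands, read 2.40, 2.47, 2.31 and 2.20 in KO and 1.73, 2.02, 1.88 and 1.72 in WT skin, a change of 0.51 ± 0.12 (SE) in the other direction. Mir344-2 met the criteria in 7 of 16 alternatives and in none of the 3 other scalings, with a change of 0.40 after centring. Both probe sets were weak, with WT means at percentiles 18.9 (Mir344) and 3.6 (Mir344-2) of all probe sets. The hairpins are shown with the mature strands in capitals, at chr7:61877770-61877864 and chr7:61940027-61940106 on the minus strand of GRCm38.p6, because they share long stretches.
Mir344: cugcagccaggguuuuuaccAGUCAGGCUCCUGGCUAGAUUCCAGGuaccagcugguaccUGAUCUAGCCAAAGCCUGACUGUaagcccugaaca
Mir344-2: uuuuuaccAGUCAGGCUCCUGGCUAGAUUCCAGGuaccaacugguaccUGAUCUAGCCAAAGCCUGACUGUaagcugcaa
When the shorter hairpin, of 80 bases, was placed along the longer, of 95 bases, 4 single-base edits separated them. Of 56 windows of 25 bases in Mir344-2, 26 occur in Mir344 as well, the only such overlap among the hairpins of the members with a printed or tabulated RefSeq sequence. Both probe sets hold 16 probes of class 3, and the probe sequences were not used here, so how many probes they share was not tested.

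The pair Mir344e and Mir344d-2 likewise shares a seed and differed in sign. Mir344e read 2.04, 2.30, 2.30 and 2.51 in KO and 3.18, 2.84, 2.91 and 3.18 in WT skin (change -0.74 ± 0.14, SE), and Mir344d-2 read 5.35, 5.16, 5.03 and 4.74 in KO and 4.56, 4.13, 4.68 and 4.04 in WT skin (change 0.72 ± 0.18, SE). The groups were apart in both. The noncoding gene A230057D06Rik, which surrounds Mir344 and Mir344e, was in the authors' deposited table as higher in KO skin, with 4.31, 4.22, 4.22 and 3.67 on the KO and 3.42, 3.47, 3.26 and 3.28 on the WT arrays and a change of 0.74 ± 0.15 (SE). So both microRNA genes inside it carried the opposite sign to the probe set of the host, though Mir344e too was weak, at WT percentile 21.1.

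The Sfmbt2 locus on chromosome 2, known in rodents for a large array of Mir466 and Mir669 genes within an intron, held 4 members of both signs. Mir669h (0.97 ± 0.26, SE) and Mir466l (0.91 ± 0.23) were higher, and Mir669c (-0.93 ± 0.27) and Mir669l (-0.51 ± 0.13) were lower. Mir669h read 4.51, 4.92, 5.11 and 4.46 in KO and 4.45, 3.19, 3.95 and 3.54 in WT skin, and Mir466l read 3.12, 3.58, 2.83 and 3.57 in KO and 2.98, 2.16, 2.16 and 2.18 in WT skin. Mir669h kept its groups apart by a small margin, while WT replicate 1 of Mir466l lay inside the KO range. Mir669c read 2.78, 2.80, 3.87 and 3.18 in KO and 3.93, 4.13, 4.66 and 3.61 in WT skin, with KO replicate 3 among the WT values. All 4 probe sets were of class 3 with 9 to 11 probes, and Sfmbt2 itself was not in the authors' deposited table.

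Mir674 and Mir3473d, the other pair of genes with a shared seed, also split. Mir674, on chromosome 2, changed by 0.68 ± 0.16 (SE) and met the criteria in all 16 alternatives, with KO values of 5.88, 5.75, 5.39 and 5.57 and WT values of 5.12, 4.64, 4.87 and 5.23. Mir3473d, on chromosome 8 within Ddx19b, changed by -0.96 ± 0.22 (SE), with 3.81, 4.80, 4.95 and 4.67 in KO and 5.53, 5.47, 5.35 and 5.74 in WT skin. Each had groups without overlap. On chromosome 12 the neighbours Mir493 and Mir3070b were both lower, as was Mir1193 further along, in the imprinted region known for its many microRNAs. Mir3070b read 4.98, 5.21, 5.09 and 5.08 in KO and 5.32, 5.72, 5.51 and 6.34 in WT skin, a change of -0.63 ± 0.20 (SE), and Mir1193 changed by -0.96 ± 0.23 (SE).

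**Figure D4:**
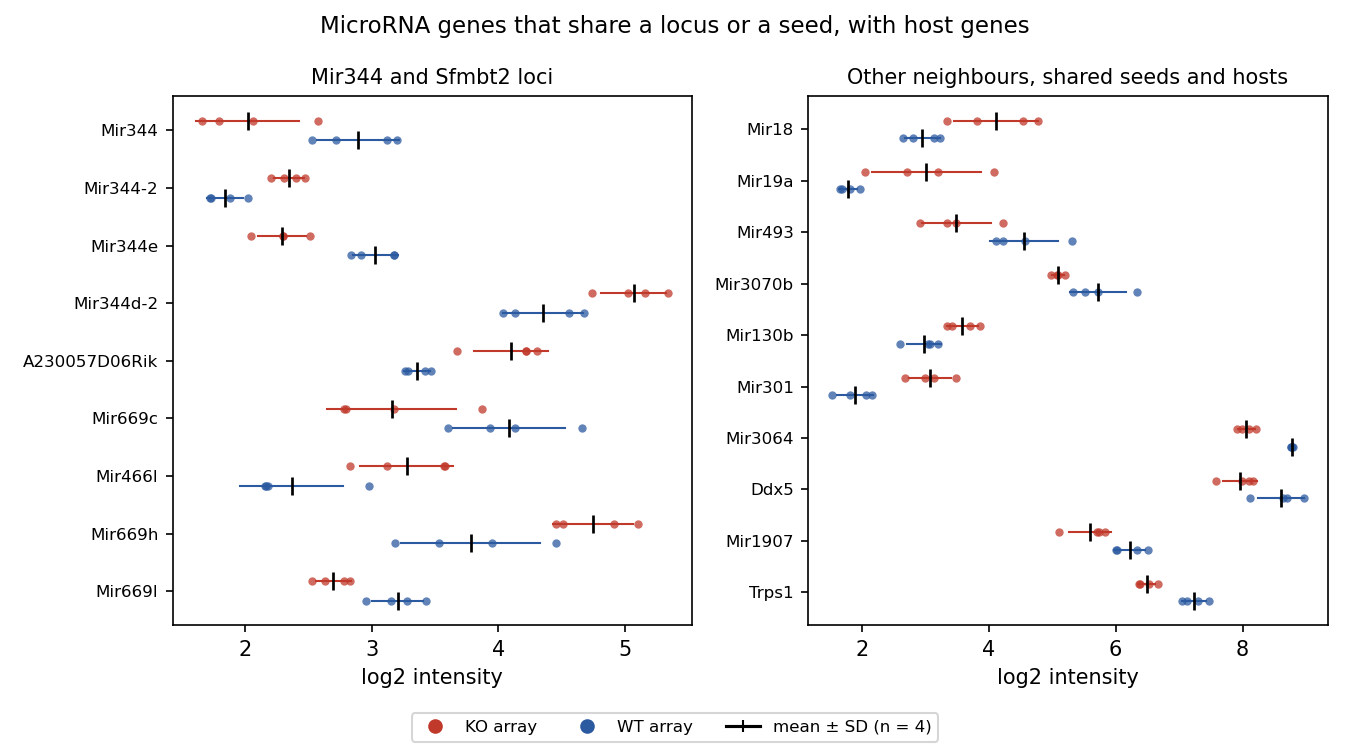
Log2 intensity per array (KO red, WT blue) of microRNA genes that share a locus or a seed, and of the 3 host genes in the authors' deposited table, with the mean (tick) and SD (line) of 4 arrays per genotype. On the left Mir344 and Mir344e lie lower and Mir344-2, Mir344d-2 and A230057D06Rik higher in KO skin, and on the right Mir3064 and Mir1907 lie lower together with Ddx5 and Trps1.

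A host gene on the same strand was found in RefSeq for 38 of the 72 members, 35 host genes in all, and 3 of these hosts were in the authors' deposited table, where 16.2% of all probe sets met its criteria. Besides A230057D06Rik they were Ddx5, the host of Mir3064, and Trps1, the host of Mir1907, and in both cases host and member were lower. Mir3064 was the brightest member, at WT percentile 93.4 of all probe sets, and read 8.22, 7.99, 7.91 and 8.09 in KO and 8.80, 8.76, 8.75 and 8.78 in WT skin. Its WT values spread by an SD of only 0.02, the change was -0.72 ± 0.11 (SE), and it met the criteria in all 16 alternatives. Ddx5, an RNA helicase that works with Drosha on many primary microRNAs, read 7.58, 8.10, 7.99 and 8.17 in KO and 8.64, 8.11, 8.71 and 8.96 in WT skin, a change of -0.65 ± 0.19 (SE), and here WT replicate 2 lay within the KO range.

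The hairpin of Mir3064, at chr11:106782693-106782759 on the minus strand of GRCm38.p6, is shown because its length sets how many probes can lie inside it.
Mir3064: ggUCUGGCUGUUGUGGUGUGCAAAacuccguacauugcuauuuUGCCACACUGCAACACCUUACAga
Its 67 bases hold 43 windows of 25 bases, fewer than the 50 probes of the probe set, so that probes of this length at distinct positions cannot all lie within the hairpin. Mir1907, on chromosome 15 within Trps1, a transcription factor gene of hair follicles, read 5.83, 5.10, 5.70 and 5.73 in KO and 6.01, 6.03, 6.51 and 6.34 in WT skin, a change of -0.63 ± 0.18 (SE). Trps1 read 6.53, 6.39, 6.66 and 6.37 in KO and 7.47, 7.04, 7.13 and 7.30 in WT skin, a change of -0.75 ± 0.13 (SE), and groups did not overlap in either gene. Whether the members' probe sets read the host transcripts was not tested.

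Bright members besides Mir3064, Mir22, Mir1907, Mir1983 and Mir3070b were Mir1954, Mir1191 and Mir339. Mir1954, on chromosome 2 within the endoglin gene Eng, read 7.97, 8.26, 8.28 and 7.78 in KO and 7.56, 7.48, 7.60 and 7.56 in WT skin, and its change of 0.52 ± 0.13 (SE) was close to the limit. Mir1191, on chromosome 7, read 6.00, 5.84, 5.99 and 5.74 in KO and 6.51, 6.44, 6.56 and 6.76 in WT skin, a change of -0.68 ± 0.12 (SE). Mir339, on chromosome 5, read 5.22, 5.22, 5.69 and 5.16 in KO and 6.31, 6.06, 6.42 and 6.12 in WT skin, a change of -0.91 ± 0.15 (SE). The groups were apart in all 3, and Mir1191 and Mir339 met the criteria in all 16 alternatives while Mir1954 met them in 9.

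The other 28 members are given by their WT mean log2 intensity, number of probes and log2 change. Among those higher, Mir1927 (WT 2.92, 23 probes, change 0.88), Mir760 (WT 4.93, 21 probes, change 0.87) and Mir3088 (WT 4.50, 22 probes, change 0.81) came first. Within the cardiac myosin gene Myh6 lay Mir208a (WT 2.07, 24 probes, change 0.54), a gene for a microRNA of heart muscle. Within genes known from nerve cells lay Mir218-2 (WT 4.39, 16 probes, change 0.54) in the axon guidance gene Slit3 and Mir764 (WT 3.33, 21 probes, change 0.81) in the serotonin receptor gene Htr2c. On the X chromosome lay also Mir188 (WT 3.82, 9 probes, change 0.62), Mir374b (WT 1.72, 24 probes, change 0.55) and Mir883b (WT 1.97, 18 probes, change 0.51). Further rises were Mir219a-2 (WT 3.90, 25 probes, change 0.69), Mir1962 (WT 3.15, 23 probes, change 0.67), Mir383 (WT 4.01, 15 probes, change 0.67), Mir135b (WT 2.87, 21 probes, change 0.66) and Mir425 (WT 4.38, 21 probes, change 0.62). Smaller ones were Mir151 (WT 3.69, 18 probes, change 0.61), Mir1945 (WT 5.49, 8 probes, change 0.59) and Mir327 (WT 2.53, 24 probes, change 0.58). The last were Mir216a (WT 2.13, 16 probes, change 0.54) and Mir5108 (WT 3.70, 17 probes, change 0.54).

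Among those lower, Mir1193 (WT 5.26, 23 probes, change -0.96) and Mir3097 (WT 4.56, 11 probes, change -0.96) were the largest. Within the nucleolin gene Ncl lay Mir3535 (WT 3.35, 24 probes, change -0.82), which RefSeq lists under the symbol Gm24148. Similar falls were those of Mir3102 (WT 3.07, 9 probes, change -0.85) and Mir1953 (WT 2.93, 12 probes, change -0.81). Smaller were Mir744 (WT 3.03, 24 probes, change -0.68) in Map2k4, Mir804 (WT 2.44, 22 probes, change -0.63), Mir149 (WT 4.91, 14 probes, change -0.56) and Mir669l (WT 3.21, 11 probes, change -0.51).

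Mir143, known from smooth muscle, was the member just inside the limit among the falls, at -0.50 ± 0.12 (SE). It read 4.14, 3.98, 3.96 and 3.97 in KO and 4.56, 4.28, 4.61 and 4.61 in WT skin. Mir344-2 was just inside among the rises at 0.51 ± 0.12 (SE). By adjusted p the members nearest to the limit of 0.05 were Mir133a-2 at 0.0466 and Mir30d at 0.0445, both from the authors' deposited table. Members just outside are not named there and are not analysed here.

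Genes of the microRNA pathway were mostly not in the authors' deposited table. Of 37 genes of processing, export, loading and turnover, 3 were listed, 2 higher and 1 lower, where 16.2% of all probe sets met the criteria. The 3 were Lin28b, Ddx5 and Xrn2, a nuclear exonuclease, which read 9.07, 9.04, 8.81 and 9.35 in KO and 8.62, 8.71, 8.39 and 8.33 in WT skin, a change of 0.55 ± 0.14 (SE). Drosha, Dgcr8, Dicer1, Xpo5 and the Argonaute genes were not listed under the searched symbols, and their levels were not analysed here.

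Under other scalings of the arrays, members dropped out among the rises and not among the falls. The members were chosen on the deposited values, and centring lowers every change alike. So rises could drop out by size or by adjusted p, while falls grew in size and none could be added. After centring 30 of the 41 higher members had an adjusted p under 0.05, and 24 also kept a change over 0.5. Mir30d and Mir133a-2 dropped out with centred changes of 0.95 and 0.87, so by adjusted p and not by size. Array medians were 4.81 to 4.88 in KO and 4.70 to 4.80 in WT skin, and centring each array on its median moved the median change of all probe sets from 0.09 to −0.02. After centring 55 of the 72 members met the criteria, 24 higher and 31 lower, where 14.4% of all probe sets did. Quantile normalization left 24 higher and 31 lower, and cyclic loess 23 higher and 31 lower, where 14.4% and 14.3% of all probe sets met the criteria. Under all 3 scalings together 53 members met the criteria, 22 higher and all 31 lower. No member changed sign under any of the 16 alternatives that could be fitted to it, which the choice of members by size of change made likely. The split among members went from 56.9% higher as deposited to 24 of 55 after centring, where their choice let no falls enter. Over all probe sets at these criteria, where falls could also enter, the split shifted too. It went from 3973 higher and 1487 lower to 2393 higher and 2461 lower, so it depended on the scaling over all probe sets as well.

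**Figure D5:**
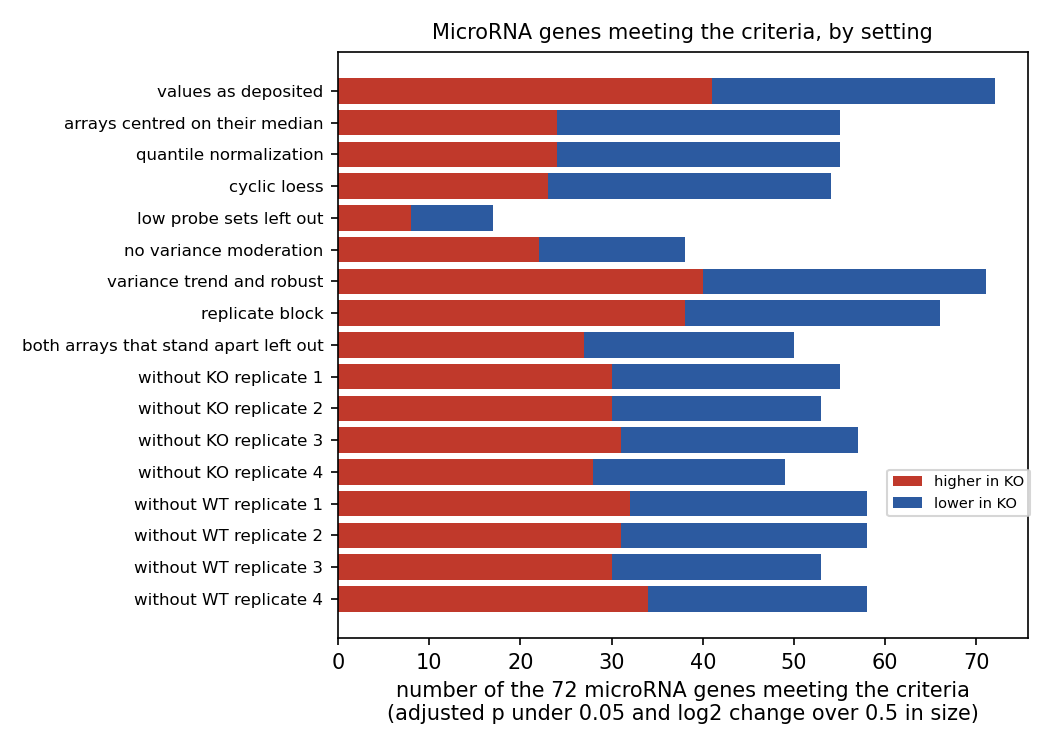
Number of the 72 microRNA genes that met the criteria of the authors' table under each setting, split into higher (red) and lower (blue) in KO skin. The count is 72 as deposited by construction, 54 or 55 under the 3 other scalings and 17 among the 17 members left when probe sets below the median level are left out.

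KO replicate 3 held the KO value nearest to the WT arrays in 24 of the 72 members, KO replicate 1 in 22, KO replicate 2 in 16 and KO replicate 4 in 10. Among the WT arrays replicate 2 held the value nearest to KO in 26 members, replicate 1 in 18, replicate 3 in 16 and replicate 4 in 12. As to the tissue, 5 of 9 keratinocyte markers were in the table, where 16.2% of all probe sets met its criteria. The filaggrin gene Flg stood at 12.82 ± 0.11 and the loricrin gene Lor at 12.69 ± 0.24 in WT skin (SD, n = 4). Of the 5, Flg, Lor, Flg2 and Krt78 were lower in KO skin, and Sfn was higher by 0.62 ± 0.19 (SE). Over all probe sets 4.4% met the criteria as lower and 11.8% as higher.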

How the data were processed

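Total RNA from 8 skins was labelled with biotin and read on the Affymetrix Gene Mouse 2.0 ST array, per the file headers and the labels' protocols, with 9 µg of RNA extracted on RNeasy columns. The authors' series values are deposited as log2 intensities, 1 per array for each probe set, and the submitters' processing notes name RMA, whose version and steps were not given in those notes. The authors' deposited table gives log2 means, the linear fold as a ratio, p-values and Benjamini-Hochberg adjusted p-values for probe sets past 0.05 and a log2 change of 0.5, per the file headers. Its other columns, the probe number and class code, were used as deposited.

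One probe set stood for each of 72 symbols. limma 3.58.1 in R 4.3.3 (lmFit, eBayes, no covariate) was fitted to all 33793 probe sets, KO minus WT, and tested on simulated data; SEs and counts under alternatives come from it. Members and lists were chosen with earlier results of these data known. Named members were the 8 with the highest WT mean, the 10 largest rises and falls, those on the fixed microRNA list, neighbours within 10 kb, shared seeds and those at the limits; the other 28 were added with shorter values. Hosts and sequences came from RefSeq GRCm38.p6; the build of the authors' files was not given in the labels or headers used. The number of arrays limits the precision.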

Additional observations from a re-analysis of the deposited data

Results flagged for a closer look

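Among the 44 microRNA genes named by rule, Dixon's test at the 95% level was applied to 88 groups of 4 values, asking whether 1 extreme array lay far from the other arrays for the group's spread. This flagged 6 groups, and chance flags about 1 in 20, or 4.4 of 88. In WT skin Mir466l stood high in replicate 1 at 2.98 (others 2.16 to 2.18), a value inside the KO range. WT replicate 3 was the highest for Mir290a at 1.95 (others 1.70 to 1.74) and for Mir451a at 2.73 (2.42 to 2.47), both still below all KO values. Among those others, WT replicates 2 and 4 of Mir290a held the same deposited value, 1.703008779. For Mir451a WT replicates 1 and 4 did, at 2.470983794, so these 2 flags rest partly on equal values. In KO skin Mir143 was highest in replicate 1 at 4.14 (3.96 to 3.98) and Mir339 in replicate 3 at 5.69 (5.16 to 5.22). Mirlet7a-2 was lowest in KO replicate 2 at 2.76 (3.03 to 3.08).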

How the results depend on the processing

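Every member kept its direction under the alternatives run. This was little of a test, because members were chosen for changes above 0.5 in size on these values. The settings of variance and block left the changes themselves as they were. The median change of the 41 higher members moved from 0.68 to 0.57 after centring, 0.57 with quantile normalization and 0.57 with cyclic loess, and leaving out single arrays gave 0.69 to 0.75, the highest without WT replicate 4. That of the 31 lower members stayed between −1.01 and −0.81. Leaving out probe sets below the median level kept 17 members, all 17 past the criteria, with a median of 0.75 for those higher. Of the 16896 probe sets tested there 2214 met the same criteria. By adjusted p under 0.05 alone, which is how probe sets changed are counted in this paragraph, 3298 did. Fewer probe sets were tested there. Without variance moderation 38 members and 3478 of all probe sets met the criteria, against 72 and 5460 as deposited. There 4923 probe sets changed, against 7194. Leaving out single arrays gave 49 to 58 members and 4388 to 5554 probe sets past the criteria, and 4821 to 6424 probe sets changed. With the replicate number as a block, 66 members and 5364 of all probe sets met the criteria, and 6250 probe sets changed. Same-numbered arrays had deviations correlated at −0.03, 0.14, 0.23 and 0.01, and 2 of 4 correlated best with their own number, so the numbers were not taken as pairs. With adjusted p under 0.05 alone the count was 72 by the choice of members. Each gene had 1 probe set, so taking that of lowest mean could not change the count. In all, 28 members, 14 higher and 14 lower, met the criteria in all 15 alternatives other than the filter. The share of all probe sets that did so is not given here. No detection value was used, so low signals limit what the weak members show.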
